A study of Mus musculus with 19 samples.

Results

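The type I interferon response genes are 43 mouse genes that are switched on when a cell senses interferon alpha or beta. They were measured in hippocampus of mice with and without a neuronal deletion of EZH2, 4 days after kainate or saline. The 43 were chosen by name, as the rows of the count table whose gene identifier carries a member's name in the submitters' annotation. All 43 names matched 1 row each, of 55416 genes in the table and 32474 with a read in any library.

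Type I interferons bind the receptor pair Ifnar1 and Ifnar2 and act through the kinases Jak1 and Tyk2. The transcription factors Stat2 and Irf9 then act in the complex ISGF3, which binds the interferon-stimulated response element (ISRE) in the promoters of its targets. Many of the targets hinder viral replication or sense foreign nucleic acid, and in brain they are known chiefly from microglia, astrocytes and infiltrating myeloid cells.

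Ribosomal RNA was depleted from total RNA of whole hippocampus, and 19 libraries were sequenced. Status epilepticus, a prolonged seizure, had been induced with repeated low doses of kainate, a glutamate receptor agonist, and controls had received saline by the same intraperitoneal route. The 4 EZH2nHom kainate libraries and 5 EZH2nHom saline libraries came from C57BL6 mice with floxed EZH2 alleles and the Synapsin1-Cre driver, which acts in neurons. The 5 WT kainate libraries and 5 WT saline libraries came from EZH2nWT mice of the same background that kept EZH2, the methyltransferase of Polycomb repressive complex 2, and also carried Cre. Age and sex are not given in the labels. The labels number the replicates and do not state that each is a separate animal, so the p-values measure the spread between these samples. The deletion is confined by design to neurons, while the tissue also holds glia, vessels and blood. In such bulk samples fewer cells of a type and less RNA per cell cannot be told apart.

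The libraries held 24496685 to 43948317 reads. The 10 fixed markers of hippocampal neurons summed to 2194 to 2872 CPM (counts per 1e6 reads) in EZH2nHom kainate, 2207 to 3594 CPM in WT kainate, 3495 to 4072 CPM in EZH2nHom saline and 3046 to 3503 CPM in WT saline. Ezh2 itself was not lower in EZH2nHom at the level of whole-gene counts, with log2 differences to WT of 0.21 (adjusted p = 0.473, edgeR) after kainate and 0.27 (adjusted p = 0.288, edgeR) after saline. The labels do not say which exons were floxed, so the gene's count does not check the genotype labels. EZH2nHom kainate replicate 2 stood apart on the second principal component of all genes, at -108.5 against -19.0 to 27.5 for the other 18 libraries. Counts of members that passed in the kainate comparisons are therefore also given without it, while changes of single genes are not. Y-linked reads were absent or near 0 in 1 EZH2nHom kainate library of 4, 2 WT kainate libraries of 5, 2 WT saline libraries of 5 and no EZH2nHom saline library.

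The promoters of 6 members are printed here because they show the response element as it stands in members that rose, and members with large fitted changes that have no such letters in the window. Stat2 and Eif2ak2 hold a single ISRE core, Ifit3 and Ifitm3 hold a pair, and Ifi209 and Oasl1 hold none. The large fitted changes of Ifi209 and Oasl1 are set against saline levels under the low-count filter, which they passed only through the kainate libraries. The sequences are RefSeq promoters of build GRCm38.p6, 250 bases before to 50 after the annotated start, written 5′ to 3′ on the gene's strand, with every ISRE core in capitals.
Ifit3: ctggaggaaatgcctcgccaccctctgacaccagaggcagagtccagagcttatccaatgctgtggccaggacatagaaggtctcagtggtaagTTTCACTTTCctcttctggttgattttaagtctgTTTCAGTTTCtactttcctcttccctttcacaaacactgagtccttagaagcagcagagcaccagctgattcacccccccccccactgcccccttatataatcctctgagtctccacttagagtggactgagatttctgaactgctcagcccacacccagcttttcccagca
Ifitm3: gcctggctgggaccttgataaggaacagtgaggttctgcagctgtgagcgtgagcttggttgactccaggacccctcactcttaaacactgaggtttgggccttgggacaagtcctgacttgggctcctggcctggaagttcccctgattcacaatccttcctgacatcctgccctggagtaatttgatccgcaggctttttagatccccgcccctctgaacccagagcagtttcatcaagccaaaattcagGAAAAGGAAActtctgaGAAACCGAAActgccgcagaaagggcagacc
Eif2ak2: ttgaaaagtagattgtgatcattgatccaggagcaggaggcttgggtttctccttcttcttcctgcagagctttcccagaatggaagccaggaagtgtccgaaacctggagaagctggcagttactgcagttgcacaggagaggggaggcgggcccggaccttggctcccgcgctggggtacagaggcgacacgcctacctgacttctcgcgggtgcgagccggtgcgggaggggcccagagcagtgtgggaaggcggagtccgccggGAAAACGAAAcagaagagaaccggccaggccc
Stat2: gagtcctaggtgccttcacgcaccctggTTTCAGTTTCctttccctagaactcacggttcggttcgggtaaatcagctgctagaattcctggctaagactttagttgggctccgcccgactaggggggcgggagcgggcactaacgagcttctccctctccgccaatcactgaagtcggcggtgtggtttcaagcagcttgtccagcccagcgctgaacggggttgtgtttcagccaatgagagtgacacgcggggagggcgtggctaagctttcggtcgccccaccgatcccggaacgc
Ifi209: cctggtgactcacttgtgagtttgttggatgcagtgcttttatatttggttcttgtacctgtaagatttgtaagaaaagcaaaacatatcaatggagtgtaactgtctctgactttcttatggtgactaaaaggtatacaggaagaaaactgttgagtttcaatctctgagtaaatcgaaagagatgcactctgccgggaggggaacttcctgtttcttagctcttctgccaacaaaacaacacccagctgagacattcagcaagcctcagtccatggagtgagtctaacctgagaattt
Oasl1: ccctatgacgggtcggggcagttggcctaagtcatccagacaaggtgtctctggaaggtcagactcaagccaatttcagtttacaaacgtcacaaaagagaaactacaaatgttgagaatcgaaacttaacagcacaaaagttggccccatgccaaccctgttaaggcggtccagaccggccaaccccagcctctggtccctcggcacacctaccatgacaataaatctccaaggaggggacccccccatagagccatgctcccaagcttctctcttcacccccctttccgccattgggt

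The windows lie at chr19:34583279-34583578, plus strand for Ifit3, chr7:141010695-141010994, minus strand for Ifitm3, chr17:78882523-78882822, minus strand for Eif2ak2, chr10:128270248-128270547, plus strand for Stat2, chr1:173630609-173630908, plus strand for Ifi209 and chr5:114922990-114923289, plus strand for Oasl1. The ISRE core was searched as GAAA, 2 bases of any kind and GAAA again, and on the other strand as TTTC, 2 bases of any kind and TTTC. It was present in 16 of the 32 members that have a promoter in the table (50%), against 3.44% of all 32851 promoters and 3.99% of all 27025 genes with one. In 7 members it occurred 2 or more times in 1 promoter, with 3 overlapping matches in Isg15. The core of the gamma-activated site (GAS), searched as TTCNNNGAA, which reads the same on both strands, was present in 6 of the 32 members (18.8%) against 8.30% of promoters and 9.55% of genes. In Ifitm3 and Bst2 the GAS core overlaps an ISRE core. A match describes letters in the window and not a bound site, and no match says only that these letters are not there. Oas2, Mx1, Mx2, Usp18, Ifi27l2a, Ifi204, Parp9, Parp14, Zbp1, Rtp4 and Dhx58 were not among the promoters used.

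After kainate the whole group was higher, in both genotypes. Levels are read counts divided by library size in units of 1e6 reads (CPM), with library sizes scaled by TMM factors, and changes are log2 fold changes ± SE from edgeR's quasi-likelihood test with Benjamini-Hochberg adjustment over all 19234 genes tested. In EZH2nHom, 43 of 43 members rose with kainate at an adjusted p under 0.05, where 14.3% of all genes tested rose. The members' median log2 change there was 3.92, with a lowest of 0.80. In WT, 42 of 43 rose, where 9.47% of all genes rose, with a median of 2.87 and a lowest of 0.48. Upper ends are not given, since they rest on Ifi206, which had 2 reads in EZH2nHom saline and 4 in WT saline. Both medians include 9 members that passed the low-count filter only through the kainate libraries. The median over all genes was -0.02 in each genotype, and 0 members fell in either. Every kainate library lay above every saline library for 42 members in EZH2nHom, against 9.93% of all genes, and for 42 in WT, against 9.79% of all genes. Cmpk2 was the exception in both. These counts also include the 9 members that passed the filter only through the kainate libraries. Without EZH2nHom kainate replicate 2, 43 members still passed in EZH2nHom.

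A structural RNA list of 9, led by Rpph1, the RNA of ribonuclease P, summed to 414 to 1763 CPM in WT kainate against 315 to 572 CPM in WT saline. The sum was 1260 to 7508 CPM in EZH2nHom kainate and 1579 to 7283 CPM in EZH2nHom saline. The list repeats Rmrp and includes Lars2, an aminoacyl-tRNA synthetase gene. Of 8 tested, 2 rose in WT (Rpph1 and 1 Rmrp row), and Lars2 fell (-0.86 ± 0.18, adjusted p = 0.00394, edgeR). In EZH2nHom only Lars2 rose (0.57 ± 0.20, adjusted p = 0.0392, edgeR). With the share of this list as a covariate 43 members passed in EZH2nHom and 30 in WT, and in limma-voom, chosen after seeing the data, 43 passed in EZH2nHom and 27 in WT. The part of structural RNA in the rise was not tested beyond this covariate.

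For 9 members the counts passed the low-count filter only through the kainate libraries, namely Zbp1, Oas2, Oas3, Oasl1, Mx1, Ifi206, Ifi207, Ifi209 and Ifi211. Such genes had to differ, so their calls add nothing to the count. Of the other 34, which were also over the filter's 0.297 CPM in at least 4 saline libraries, 34 rose in EZH2nHom and 33 in WT.

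**Figure D1:**
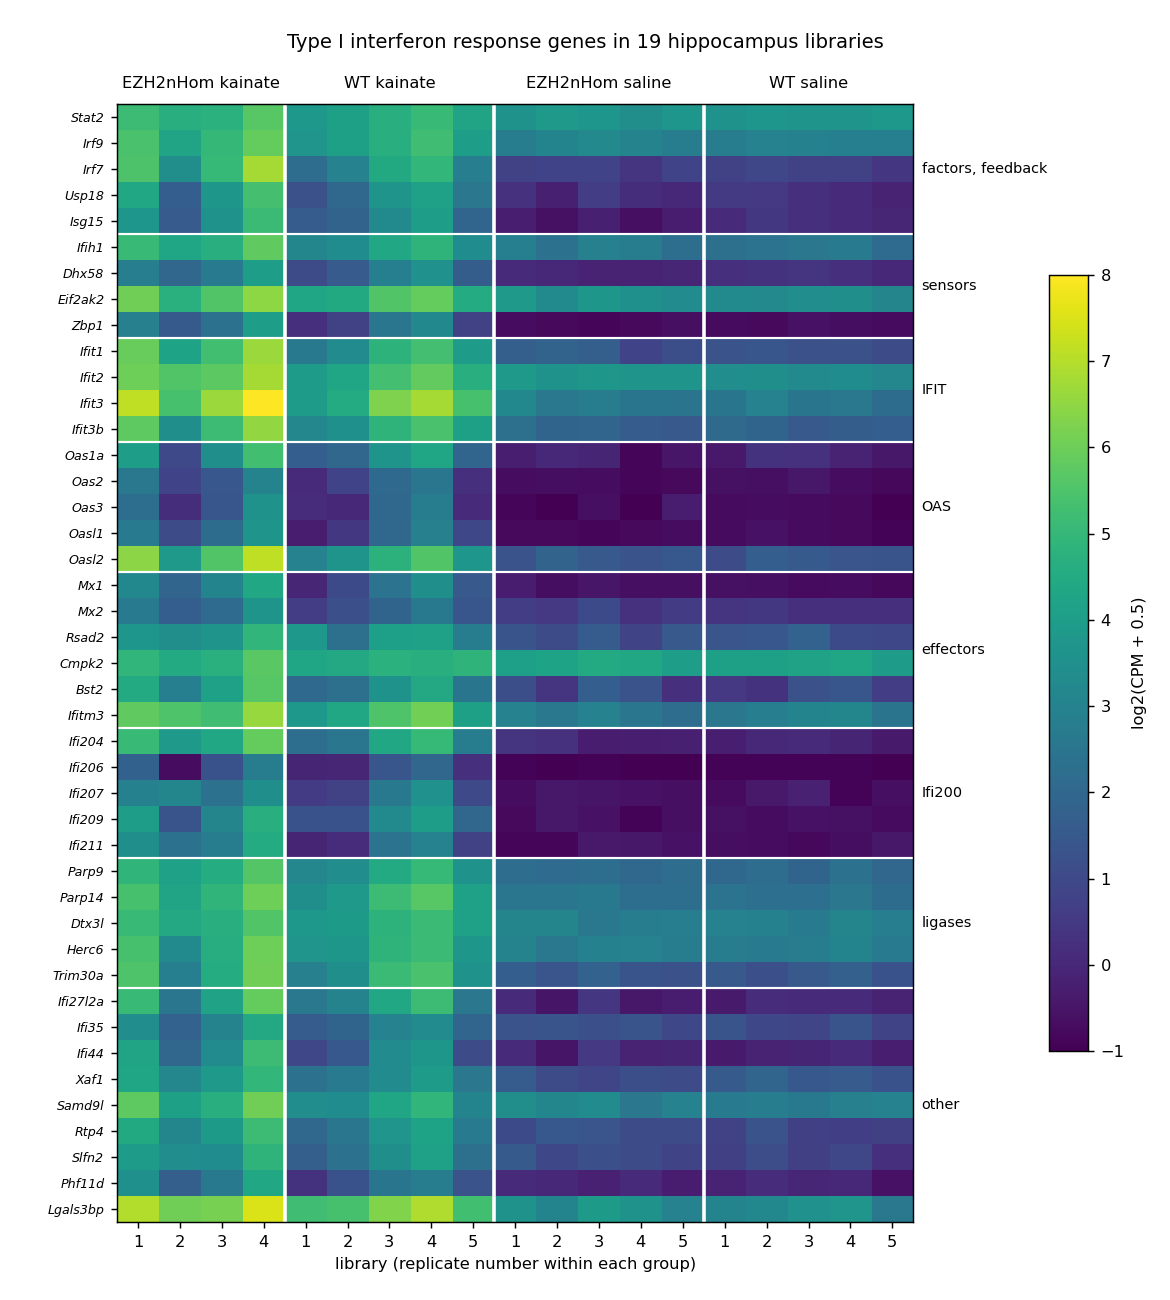
Level of each of the 43 members (rows, by role) in each of the 19 libraries (columns), as log2(CPM + 0.5) on a colour scale. The kainate libraries are brighter than the saline libraries in nearly every row, and EZH2nHom kainate replicate 4 is the brightest of its group for 43 of 43 members.

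The kainate libraries differed widely among themselves. The mean of log2(CPM + 0.5) over the 43 members was 4.51, 3.04, 3.95 and 5.34 in EZH2nHom kainate replicates 1 to 4 and 2.22, 2.58, 3.88, 4.44 and 2.72 in WT kainate replicates 1 to 5. It stayed between 1.06 and 1.33 in EZH2nHom saline and between 0.948 and 1.22 in WT saline. Among the kainate libraries the extremes were shared by most genes. EZH2nHom kainate replicate 4 was the highest of its group for 43 members and replicate 2 the lowest for 40, while WT kainate replicate 4 was the highest for 42 and replicate 1 the lowest for 39. Within a kainate group the highest library was 5.59 times the lowest for the median member in EZH2nHom and 6.02 times in WT. The kainate groups of the genotypes overlapped for all 43 members, while 4.13% of all genes tested had every EZH2nHom kainate library above every WT kainate library.

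Compared per length, the most abundant members after kainate were Ifitm3, at 87.0 CPM per kilobase of exon in EZH2nHom and 48.2 in WT, Ifit3 at 77.0 in EZH2nHom and 30.2 in WT, Ifi27l2a at 61.3 in EZH2nHom and 32.3 in WT, and Lgals3bp at 38.6 in EZH2nHom and 22.2 in WT. Ifitm3 also led after saline, at 8.85 in EZH2nHom and 9.79 in WT. Ifi27l2a, in contrast, ranked 15 of 43 after saline in EZH2nHom and 13 in WT. Exon lengths are from GENCODE M21.

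All 5 transcription factors and feedback genes rose in both genotypes. Stat2, a transcription factor of ISGF3, was at 35.1, 24.5, 26.1 and 50.6 CPM in EZH2nHom kainate replicates 1 to 4 and 13.4, 16.8, 24.7, 32.7 and 18.5 CPM in WT kainate replicates 1 to 5. Its saline level was 10.5 to 13.9 CPM in EZH2nHom and 11.9 to 13.3 CPM in WT. Within each genotype all kainate libraries lay above all saline libraries, in WT by a narrow margin, and the change was small for the group, 1.47 ± 0.22 in EZH2nHom (adjusted p = 8.63e-05) and 0.77 ± 0.21 in WT (adjusted p = 0.0194). In WT the call of Stat2 was lost without kainate replicate 3 or without kainate replicate 4. Irf9, the DNA-binding subunit of ISGF3, rose by 2.33 in EZH2nHom and 1.61 in WT on the log2 scale.

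Irf7 (ENSMUSG00000025498), which amplifies interferon production, was the factor with the largest change. It was at 44.3, 10.3, 32.4 and 111 CPM in EZH2nHom kainate replicates 1 to 4, and 4.19, 7.47, 21.8, 30.3 and 6.76 CPM in WT kainate replicates 1 to 5. After saline it was at 1.16, 1.24, 1.27, 0.821 and 1.25 CPM in EZH2nHom replicates 1 to 5 and 1.19, 1.41, 1.204, 1.16 and 0.830 CPM in WT replicates 1 to 5. No kainate library came down to the saline range, although the kainate libraries of each genotype were far apart. The log2 change was 5.42 ± 0.64 in EZH2nHom (adjusted p = 2.06e-05) and 3.59 ± 0.60 in WT (adjusted p = 0.000668).

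Isg15, the ubiquitin-like protein that is conjugated to other proteins during the response, was at 12.8, 2.53, 11.8 and 34.6 CPM in EZH2nHom kainate replicates 1 to 4 and 2.56, 3.13, 9.29, 15.4 and 3.33 CPM in WT kainate replicates 1 to 5. Its saline level was 0.352, 0.166, 0.356, 0.152 and 0.297 CPM in EZH2nHom replicates 1 to 5 and 0.548, 0.887, 0.654, 0.566 and 0.484 CPM in WT replicates 1 to 5. It was the member with the largest gap between the genotypes' responses: 5.82 ± 0.70 in EZH2nHom and 3.41 ± 0.61 in WT. Its saline level rested on 44 reads in EZH2nHom and 100 in WT. Every EZH2nHom saline library lay below every WT saline library, though the share of all genes in that direction is not given here. The saline difference of -1.21 ± 0.72 did not pass (adjusted p = 0.298, edgeR). Usp18, which removes Isg15 and restrains the receptor, rose by 4.81 in EZH2nHom and 3.51 in WT.

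All 4 sensors of foreign nucleic acid rose in both genotypes, though Zbp1 passed the low-count filter only through the kainate libraries. Eif2ak2 encodes PKR, the kinase that stops translation on double-stranded RNA, and per kilobase of exon was the most abundant of them in both kainate groups. It was at 65.4, 25.6, 46.8 and 87.4 CPM in EZH2nHom kainate replicates 1 to 4, 18.9, 21.4, 46.4, 57.8 and 22.6 CPM in WT kainate replicates 1 to 5, 9.31 to 13.8 CPM in EZH2nHom saline and 8.13 to 10.7 CPM in WT saline. Its log2 change was 2.30 ± 0.33 in EZH2nHom (adjusted p = 8.18e-05) and 1.83 ± 0.32 in WT (adjusted p = 0.000869).

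Ifih1 (ENSMUSG00000026896) encodes MDA5, a cytosolic sensor of long double-stranded RNA. It was at 33.8, 19.3, 24.7 and 54.7 CPM in EZH2nHom kainate replicates 1 to 4, 8.29, 9.96, 20.5, 28.8 and 10.01 CPM in WT kainate replicates 1 to 5, 6.96, 4.80, 7.08, 6.54 and 4.22 CPM in EZH2nHom saline replicates 1 to 5 and 4.45, 4.89, 5.40, 6.14 and 3.94 CPM in WT saline replicates 1 to 5. The change was 2.48 ± 0.34 in EZH2nHom (adjusted p = 5.22e-05) and 1.63 ± 0.33 in WT (adjusted p = 0.00253). Dhx58, the related helicase LGP2, rose by 4.07 in EZH2nHom and 2.87 in WT.

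Zbp1, a sensor of Z-form nucleic acid that can trigger necroptosis, was close to 0 in every saline library. It was at 7.06, 2.46, 4.69 and 16.1 CPM in EZH2nHom kainate replicates 1 to 4 and 0.672, 1.19, 5.26, 8.63 and 1.22 CPM in WT kainate replicates 1 to 5. No saline library exceeded 0.149 CPM in EZH2nHom or 0.172 CPM in WT. The log2 change was 6.21 ± 0.78 in EZH2nHom and 4.77 ± 0.74 in WT.

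The 4 IFIT genes, whose proteins bind viral RNA and block its translation, lie together on chromosome 19 and all rose. Ifit3 was the most abundant per kilobase, at 139, 41.6, 101 and 256 CPM in EZH2nHom kainate replicates 1 to 4 and 14.9, 22.9, 76.6, 109 and 40.7 CPM in WT kainate replicates 1 to 5. After saline it was at 8.67, 5.59, 6.55, 5.14 and 5.05 CPM in EZH2nHom replicates 1 to 5 and 5.19, 7.37, 5.16, 5.60 and 4.01 CPM in WT replicates 1 to 5. The log2 change was 4.43 ± 0.54 in EZH2nHom (adjusted p = 2.76e-05) and 3.26 ± 0.51 in WT (adjusted p = 0.000434).

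Ifit3 and its neighbour Ifit3b carry the same pair of ISRE cores, and 61.1% of the 32-base words in Ifit3 transcripts and 54.6% of those in Ifit3b transcripts also occur in other genes. How the authors counted reads that fit both is not given in the sources used here, so the split between them is uncertain. Ifit3b rose by 3.89 in EZH2nHom and 2.85 in WT, and Ifit1 by 4.53 in EZH2nHom and 3.35 in WT.

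Ifit2 (ENSMUSG00000045932) changed least of the 4. It was at 64.0, 46.2, 52.4 and 109.6 CPM in EZH2nHom kainate replicates 1 to 4, 14.7, 19.6, 39.6, 57.3 and 24.4 CPM in WT kainate replicates 1 to 5, 14.1, 11.6, 13.2, 12.05 and 12.2 CPM in EZH2nHom saline replicates 1 to 5 and 10.2, 10.8, 9.08, 9.86 and 8.44 CPM in WT saline replicates 1 to 5. Its log2 change was 2.43 ± 0.31 in EZH2nHom (adjusted p = 2.89e-05) and 1.68 ± 0.29 in WT (adjusted p = 0.000874). All 5 EZH2nHom saline libraries lay above all 5 WT saline libraries for Ifit2. This held for 12.9% of all genes tested and for 0 of the other 42 members. Only that direction was counted, and Isg15 was separated the other way, as given above. The Ifit2 difference of 0.39 ± 0.29 did not pass (adjusted p = 0.436, edgeR).

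**Figure D2:**
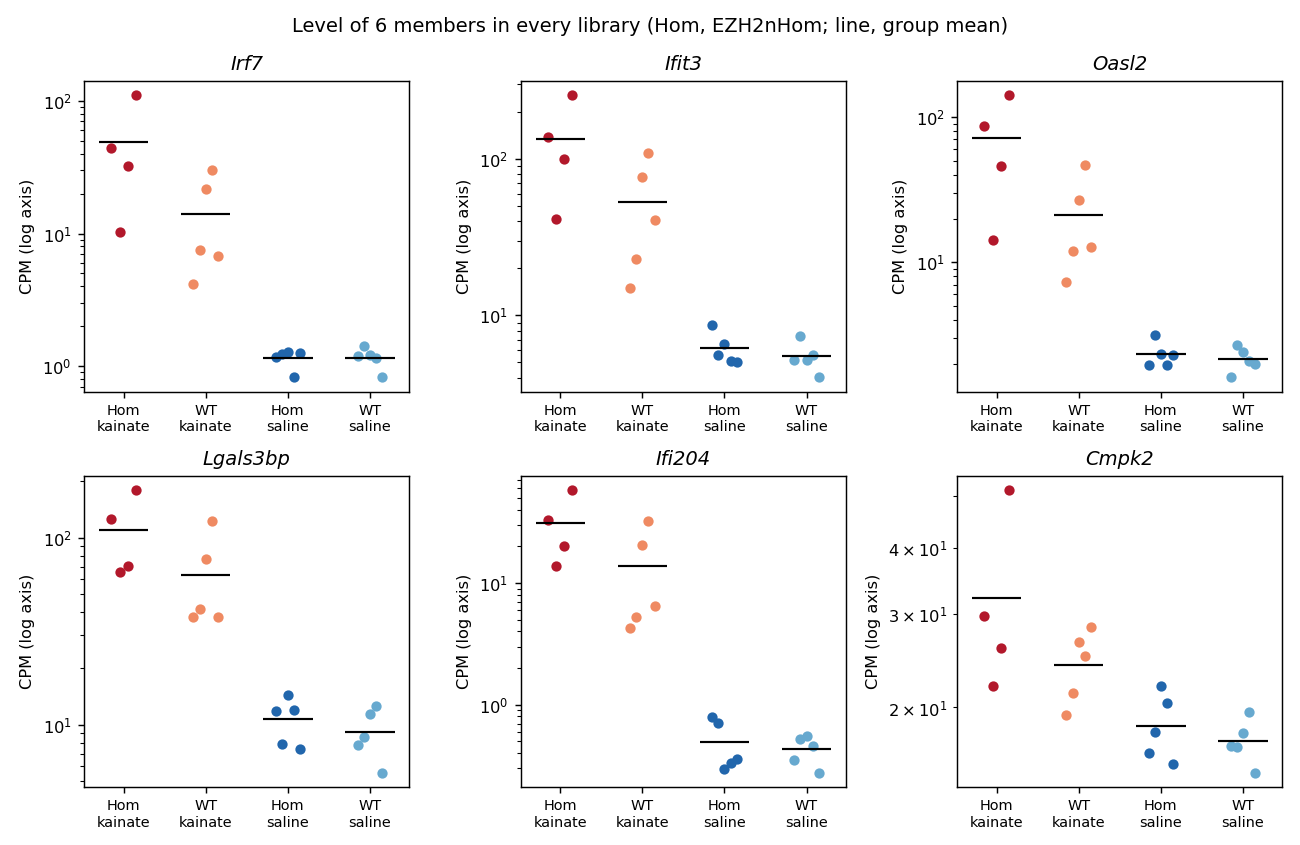
CPM (log axis) of Irf7, Ifit3, Oasl2, Lgals3bp, Ifi204 and Cmpk2 in every library, with a line at each group's mean (Hom, EZH2nHom). All kainate points lie above all saline points except for Cmpk2, whose groups overlap, and the kainate groups of the genotypes overlap in all 6 panels.

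The 5 members of the OAS family lie on chromosome 5. Oas1a, Oas2 and Oas3 make the short adenylate chains that activate RNase L, and Oasl1 and Oasl2 are relatives known in mouse. All 5 rose in both genotypes, by 4.96 to 6.03 in EZH2nHom and 3.28 to 4.77 in WT on the log2 scale. Oas2, Oas3 and Oasl1 passed the low-count filter only through the kainate libraries, so their calls add nothing to this count. The upper ends of both ranges rest on such genes. Oasl2 (ENSMUSG00000029561) was at 86.5, 14.2, 46.3 and 141 CPM in EZH2nHom kainate replicates 1 to 4, 7.36, 12.01, 26.8, 46.8 and 12.8 CPM in WT kainate replicates 1 to 5, 1.98, 3.15, 2.34, 1.95 and 2.29 CPM in EZH2nHom saline replicates 1 to 5 and 1.61, 2.69, 2.41, 2.10 and 2.01 CPM in WT saline replicates 1 to 5. It changed by 4.96 ± 0.58 in EZH2nHom (adjusted p = 2.01e-05) and 3.28 ± 0.55 in WT (adjusted p = 0.000653).

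Oasl1, which in mouse restrains translation of Irf7, was at 5.85, 1.61, 4.00 and 12.2 CPM in EZH2nHom kainate replicates 1 to 4 and 0.320, 0.858, 3.48, 6.98 and 1.44 CPM in WT kainate replicates 1 to 5. Its saline libraries held 0.0593 to 0.119 CPM in EZH2nHom and 0.0346 to 0.184 CPM in WT. The change was 6.03 ± 0.81 in EZH2nHom and 4.63 ± 0.77 in WT. In Oas1a transcripts 68.2% of 32-base words also occur in other genes, and the split of its reads from near-identical relatives is uncertain. Its level was 16.4 ± 15.5 CPM in EZH2nHom kainate (SD, n = 4), 8.14 ± 7.28 CPM in WT kainate (SD, n = 5) and 0.734 CPM or less in every saline library.

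Of the 6 antiviral effectors all rose in EZH2nHom and 5 in WT, though Mx1 passed the low-count filter only through the kainate libraries. Ifitm3, which blocks viral entry at endosomal membranes, was at 55.8, 45.2, 37.0 and 97.9 CPM in EZH2nHom kainate replicates 1 to 4, 13.3, 20.4, 45.1, 67.9 and 16.8 CPM in WT kainate replicates 1 to 5, 4.16 to 7.501 CPM in EZH2nHom saline and 5.01 to 8.24 CPM in WT saline. It changed by 3.29 ± 0.41 in EZH2nHom (adjusted p = 2.93e-05) and 2.29 ± 0.39 in WT (adjusted p = 0.000765).

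Mx1 encodes a dynamin-like GTPase that traps viral nucleocapsids, a role its protein lacks in most laboratory strains because the gene is truncated there. Mx1 RNA was at 8.69, 3.34, 7.85 and 20.01 CPM in EZH2nHom kainate replicates 1 to 4 and 0.480, 1.55, 4.83, 10.6 and 2.34 CPM in WT kainate replicates 1 to 5, over 0.124 to 0.298 CPM in EZH2nHom saline and 0.0692 to 0.161 CPM in WT saline. The log2 change was 5.64 ± 0.72 in EZH2nHom and 4.997 ± 0.75 in WT. Bst2, or tetherin, which holds budding virions at the membrane, rose by 3.92 in EZH2nHom and 2.76 in WT. Mx2 rose by 2.54 in EZH2nHom and 1.90 in WT. Rsad2, or viperin, which makes a chain-terminating nucleotide, rose by 3.05 in EZH2nHom and 2.49 in WT.

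Cmpk2 (ENSMUSG00000020638), a mitochondrial nucleotide kinase that neighbours Rsad2 on chromosome 12, was the least responsive member. It was at 29.7, 21.9, 25.9 and 51.3 CPM in EZH2nHom kainate replicates 1 to 4, 19.4, 21.3, 26.6, 25.0 and 28.3 CPM in WT kainate replicates 1 to 5, 16.4, 17.96, 21.98, 20.4 and 15.6 CPM in EZH2nHom saline replicates 1 to 5 and 16.9, 16.8, 17.9, 19.6 and 15.1 CPM in WT saline replicates 1 to 5. Kainate and saline libraries overlapped in both genotypes. The log2 change was 0.80 ± 0.19 in EZH2nHom (adjusted p = 0.00362) and 0.48 ± 0.18 in WT, which did not pass (adjusted p = 0.0871). That the gene passed in EZH2nHom and not in WT does not show a difference: the difference of its responses was 0.32 ± 0.26 (adjusted p = 0.727).

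The Ifi200 genes, a cluster on chromosome 1 whose human relatives sense DNA, had a median log2 change of 6.08 in EZH2nHom and 4.97 in WT, which rests on 4 members that passed the filter only through the kainate libraries (Ifi206, Ifi207, Ifi209 and Ifi211). Ifi204 was at 33.1, 13.7, 20.1 and 57.7 CPM in EZH2nHom kainate replicates 1 to 4 and 4.29, 5.26, 20.5, 32.5 and 6.47 CPM in WT kainate replicates 1 to 5, over 0.296 to 0.785 CPM in EZH2nHom saline and 0.277 to 0.551 CPM in WT saline. It changed by 5.98 ± 0.64 in EZH2nHom (adjusted p = 8.41e-06) and 4.97 ± 0.62 in WT (adjusted p = 0.0001). In WT this was the smallest adjusted p of the 43.

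Ifi209 was at 15.6, 2.02, 8.08 and 24.7 CPM in EZH2nHom kainate replicates 1 to 4, 1.89, 1.91, 9.51, 15.5 and 3.43 CPM in WT kainate replicates 1 to 5, 0.0304 to 0.248 CPM in EZH2nHom saline and 0.104 to 0.172 CPM in WT saline, a change of 6.54 ± 0.81 in EZH2nHom and 5.43 ± 0.78 in WT. Ifi211 was at 10.7, 4.70, 6.51 and 22.6 CPM in EZH2nHom kainate replicates 1 to 4, 0.448, 0.609, 4.93, 7.53 and 1.22 CPM in WT kainate replicates 1 to 5, 0.0414 to 0.267 CPM in EZH2nHom saline and 0.0688 to 0.242 CPM in WT saline, a change of 6.08 ± 0.82 in EZH2nHom and 4.35 ± 0.80 in WT. In both genes every saline library was below the lowest kainate library of its genotype. Of the 32-base words in their transcripts, 78.6% in Ifi211, 46.3% in Ifi209, 35.7% in Ifi206 and 33.0% in Ifi204 also occur in other genes, so the members of this cluster are not cleanly separable. Ifi206 had 428 reads in EZH2nHom kainate and 204 in WT kainate, against 2 reads in EZH2nHom saline and 4 in WT saline, and no fold is given for it. Ifi207 rose by 5.42 in EZH2nHom and 4.49 in WT.

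The ADP-ribosyl and ubiquitin-type ligases rose by 2.18 to 3.90 in EZH2nHom and 1.58 to 3.21 in WT on the log2 scale. Parp14, an ADP-ribosyltransferase, was at 41.3, 18.6, 29.0 and 64.5 CPM in EZH2nHom kainate replicates 1 to 4, 10.8, 13.98, 35.3, 50.3 and 17.2 CPM in WT kainate replicates 1 to 5, 4.22 to 5.69 CPM in EZH2nHom saline and 4.08 to 5.44 CPM in WT saline. Its log2 change was 2.95 ± 0.39 in EZH2nHom and 2.45 ± 0.38 in WT. Dtx3l, a ubiquitin ligase that pairs with Parp9, was at 32.9, 21.1, 24.3 and 47.0 CPM in EZH2nHom kainate replicates 1 to 4, 13.3, 14.4, 27.6, 34.5 and 17.4 CPM in WT kainate replicates 1 to 5, 5.51 to 8.03 CPM in EZH2nHom saline and 6.13 to 8.03 CPM in WT saline. Parp9, its neighbour on chromosome 16, rose by 2.86 in EZH2nHom and 2.13 in WT. Herc6, the mouse ligase for Isg15, rose by 2.33 in EZH2nHom and 1.64 in WT. Trim30a, which in mouse dampens Toll-like receptor signalling, had the largest change of these 5.

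Among the 9 other induced genes, Lgals3bp, a secreted glycoprotein that binds galectins, had the second highest level per kilobase after kainate, behind Ifi27l2a, in both genotypes. It was at 125, 65.3, 70.2 and 179 CPM in EZH2nHom kainate replicates 1 to 4, 37.6, 41.4, 77.1, 122 and 37.8 CPM in WT kainate replicates 1 to 5, 7.40 to 14.4 CPM in EZH2nHom saline and 5.53 to 12.6 CPM in WT saline. The change was 3.36 ± 0.39 in EZH2nHom (adjusted p = 1.76e-05) and 2.78 ± 0.37 in WT (adjusted p = 0.000165).

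Ifi27l2a, which encodes a small hydrophobic protein, was at 32.8, 5.32, 17.7 and 57.7 CPM in EZH2nHom kainate replicates 1 to 4, 5.57, 7.72, 20.4, 35.8 and 5.41 CPM in WT kainate replicates 1 to 5, 0.207 to 0.830 CPM in EZH2nHom saline and 0.290 to 0.612 CPM in WT saline. It rose by 5.98 in EZH2nHom and 4.90 in WT. Rtp4, a chaperone of membrane receptors, Slfn2, which in mouse keeps T cells quiescent, and Ifi35, Ifi44 and Phf11d rose by 2.51 to 5.01 in EZH2nHom and 1.68 to 3.74 in WT.

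Xaf1 (ENSMUSG00000040483), which antagonises an inhibitor of apoptosis, was at 19.3, 8.48, 14.1 and 30.6 CPM in EZH2nHom kainate replicates 1 to 4, 4.61, 6.17, 9.62, 14.9 and 5.43 CPM in WT kainate replicates 1 to 5, 2.57, 1.61, 1.33, 1.76 and 1.63 CPM in EZH2nHom saline replicates 1 to 5 and 2.45, 3.33, 2.31, 2.48 and 1.90 CPM in WT saline replicates 1 to 5. Its change of 3.34 ± 0.36 in EZH2nHom had the smallest adjusted p of the 43 there (7.34e-06), and in WT it was 1.70 ± 0.33 (adjusted p = 0.00211). Samd9l (ENSMUSG00000047735), an antiviral and growth-restraining factor, was at 54.5, 16.6, 25.4 and 64.9 CPM in EZH2nHom kainate replicates 1 to 4, 10.3, 9.77, 18.9, 30.0 and 7.78 CPM in WT kainate replicates 1 to 5, 10.4, 8.20, 9.63, 5.38 and 7.43 CPM in EZH2nHom saline replicates 1 to 5 and 5.83, 6.54, 5.78, 7.03 and 7.54 CPM in WT saline replicates 1 to 5. It changed by 2.30 ± 0.39 in EZH2nHom and by 1.22 ± 0.37 in WT (adjusted p = 0.0362), a call that was lost without any 1 of the 5 WT saline libraries, or without WT kainate replicate 3 or 4.

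**Figure D3:**
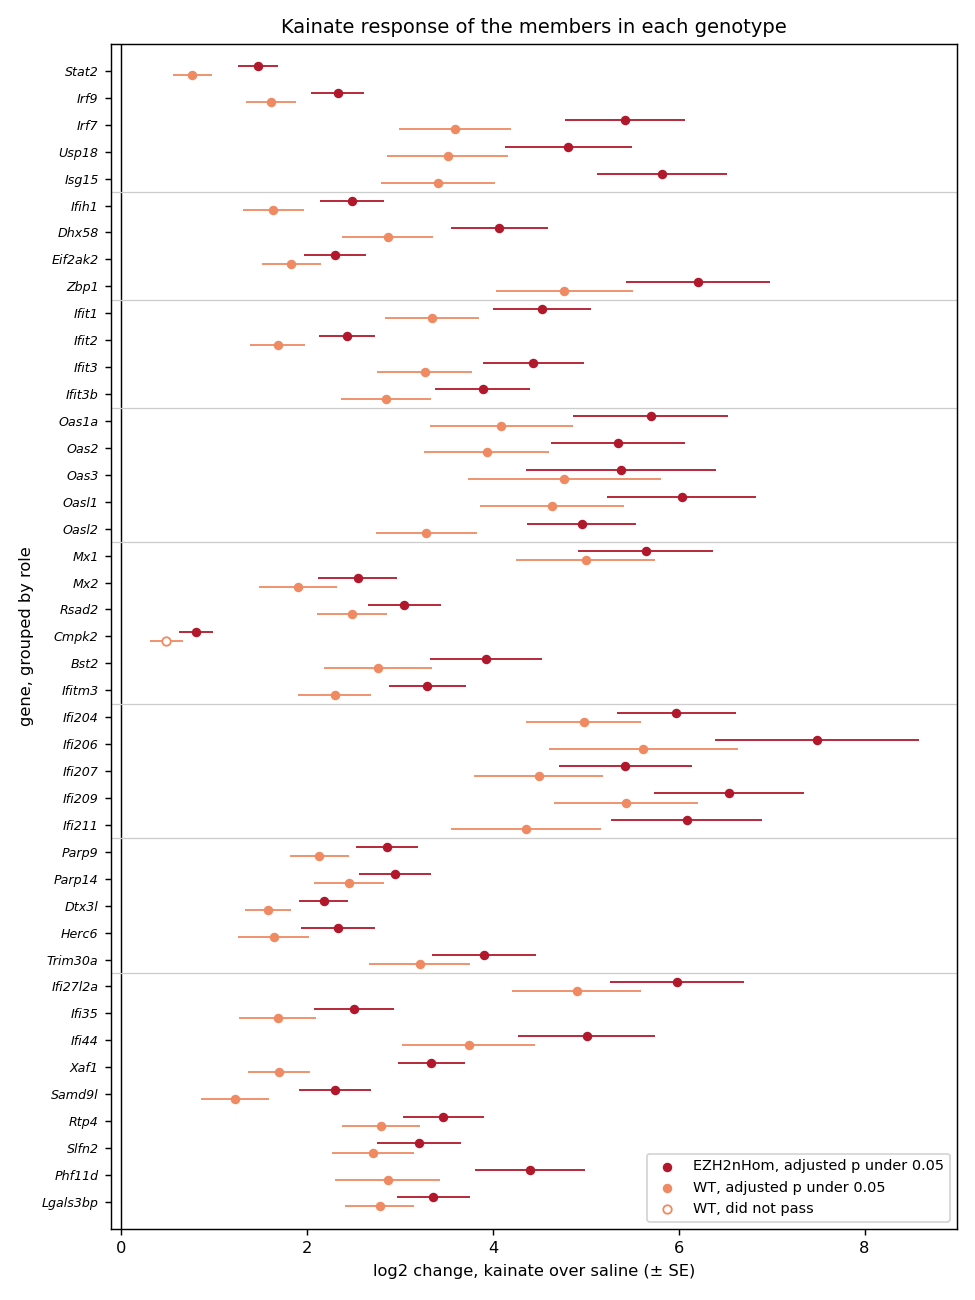
Log2 change after kainate over saline (± SE) of each member in EZH2nHom (dark red) and WT (orange), from edgeR, with an open point where the adjusted p was 0.05 or more. Every point is above 0, the EZH2nHom point lies to the right of the WT point for 43 of 43 members, and Cmpk2 in WT is the only open point.

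Sample names carry codes that the labels leave unexplained, and 2 of the WT codes occur in both treatments. Under 081321 the members' mean level was 2.58, 3.88 and 4.44 in WT kainate replicates 2, 3 and 4 and 1.22 in WT saline replicate 2. Under 070721 it was 2.22 in WT kainate replicate 1 and 1.197 in WT saline replicate 4. The kainate libraries were higher within both codes, but with the code as a block in these 6 libraries 0 members passed in edgeR and 33 had an unadjusted p under 0.05. The shares of all genes in that fit are not given here, so these counts do not set the members apart from other genes. No code occurs in both genotypes, so code and genotype cannot be told apart. In EZH2nHom 0 codes occur in both treatments, so code and kainate cannot be told apart there, and no such block could be run.

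The interferons themselves were not measurable. Of 20 genes for type I and type III interferons, 17 had no read in any of the 19 libraries, where a count of 0 allows up to 3 reads per library, and the rest had 11 reads in total. Ifnb1 had 4 reads over the EZH2nHom kainate libraries, 1 over WT kainate and 0 in saline of either genotype. Ifng, the type II interferon, was also too low to test. At this depth a difference in ligand RNA was not detectable.

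Of the 59 listed genes of the wider pathway, 37 could be tested, and 26 rose in EZH2nHom and 23 in WT, with 0 lower in either. Among all genes tested 14.3% rose in EZH2nHom and 9.47% in WT. The median log2 change of the 37 pathway genes was 1.48 in EZH2nHom and 1.03 in WT. Of the receptor chains, Ifnar2 rose by 0.89 ± 0.17 in EZH2nHom (adjusted p = 0.000887) and 0.73 ± 0.16 in WT (adjusted p = 0.00613). Ifnar1 did not pass, at 0.07 in EZH2nHom (adjusted p = 0.526) and 0.14 in WT (adjusted p = 0.246).

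Sensors upstream of the interferons also rose, 10 of 14 sensing and induction genes in each genotype. The share of all genes that rose was 14.3% in EZH2nHom and 9.47% in WT. Tlr7, an endosomal receptor for single-stranded RNA, rose by 2.80 in EZH2nHom and 2.28 in WT, and Ddx58, or RIG-I, by 2.52 in EZH2nHom and 1.98 in WT. Cgas, the DNA sensor, and Sting1, its adaptor, rose by 1.55 and 1.73 in EZH2nHom and 0.99 and 1.66 in WT. Tbk1, Irf3 and Mavs, which relay these signals, did not pass in either genotype, with log2 changes from 0.07 to 0.23 in EZH2nHom and from -0.01 to 0.42 in WT. In EZH2nHom kainate Tlr7 was highest in replicate 2, at 39.5 CPM against 12.1 to 24.8 CPM in the other replicates. Among restraining genes, Socs3 rose by 4.82 ± 0.80 in EZH2nHom and 3.25 ± 0.77 in WT. Socs3 was at 9.42, 109.6, 12.2 and 25.4 CPM in EZH2nHom kainate replicates 1 to 4, so its EZH2nHom change rests largely on replicate 2. In WT kainate it was at 1.98 to 26.2 CPM. Adar, the RNA editing enzyme, was at -0.01 in EZH2nHom and -0.06 in WT without passing. Cxcl10, a chemokine that both interferon types induce, had the largest change of these lists in EZH2nHom, 6.98 ± 0.96, against 5.10 ± 0.90 in WT.

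Microglia markers moved with the members. All 10 fixed markers rose in WT, against 9.47% of all genes, and 9 of 10 in EZH2nHom, against 14.3% of all genes. In EZH2nHom P2ry12 missed the threshold (0.60 ± 0.23, adjusted p = 0.0548, edgeR). The markers' log2 changes were 0.60 to 2.67 in EZH2nHom and 0.81 to 2.07 in WT. Their summed level was 730 to 1689 CPM in EZH2nHom kainate, 668 to 1854 CPM in WT kainate, 314 to 361 CPM in EZH2nHom saline and 376 to 423 CPM in WT saline. Replicate 4 was the highest of its kainate group in both this sum and the members' level, in each genotype. The part of microglial number or state in the members' rise was not tested.

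Markers of myeloid cells that could enter from blood rose in part, and lymphocyte markers stayed near 0. Of 8 monocyte and neutrophil markers, 5 rose in EZH2nHom, where 14.3% of all genes rose, and 4 in WT, where 9.47% rose. The markers' summed level was 71.3 to 133 CPM in EZH2nHom kainate, 54.2 to 173 CPM in WT kainate, 39.5 to 48.1 CPM in EZH2nHom saline and 41.5 to 57.02 CPM in WT saline. Most of that sum is Vcan, which brain cells also express, while the monocyte receptor Ccr2 ran from 0 to 8.85 CPM in EZH2nHom kainate and 0.506 to 13.02 CPM in WT kainate, and the neutrophil marker Ly6g was too low to test. Of 11 lymphocyte markers 9 were too low to test, and the summed level stayed at 0.220 to 2.49 CPM in EZH2nHom kainate, 0.768 to 2.02 CPM in WT kainate, 0.433 to 1.22 CPM in EZH2nHom saline and 0.734 to 1.14 CPM in WT saline. The T cell marker Cd3e did not exceed 0.0726 CPM in any library. Of 6 border macrophage markers 1 rose, in each genotype. The part of infiltrating cells was not tested. Of 5 choroid plexus markers 0 changed with kainate in either genotype, and they summed to 13.1 to 682 CPM in EZH2nHom kainate, 28.3 to 1157 CPM in WT kainate, 36.3 to 3701 CPM in EZH2nHom saline and 19.4 to 3957 CPM in WT saline.

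Other resident cells moved less evenly. Of 8 astrocyte markers 4 rose in each genotype, where 14.3% of all genes rose in EZH2nHom and 9.47% in WT. Of 8 endothelial markers 0 changed in either, and of 10 neuronal markers 5 fell in EZH2nHom and 3 in WT. Falls were more common in EZH2nHom among all 19234 genes tested, with 2266 there and 495 in WT. Of 7 oligodendrocyte markers 4 fell in EZH2nHom and 0 in WT, with a summed level of 3627 to 6225 CPM in EZH2nHom kainate, 4763 to 8684 CPM in WT kainate, 6394 to 10256 CPM in EZH2nHom saline and 5377 to 7557 CPM in WT saline. Of 5 red blood cell genes 0 rose in EZH2nHom and 5 in WT, with a summed level of 103 to 434 CPM in EZH2nHom kainate, 552 to 1974 CPM in WT kainate, 158 to 400 CPM in EZH2nHom saline and 258 to 770 CPM in WT saline. For the difference of the responses 0 of either list passed. Their part in the members' values was not tested.

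**Figure D4:**
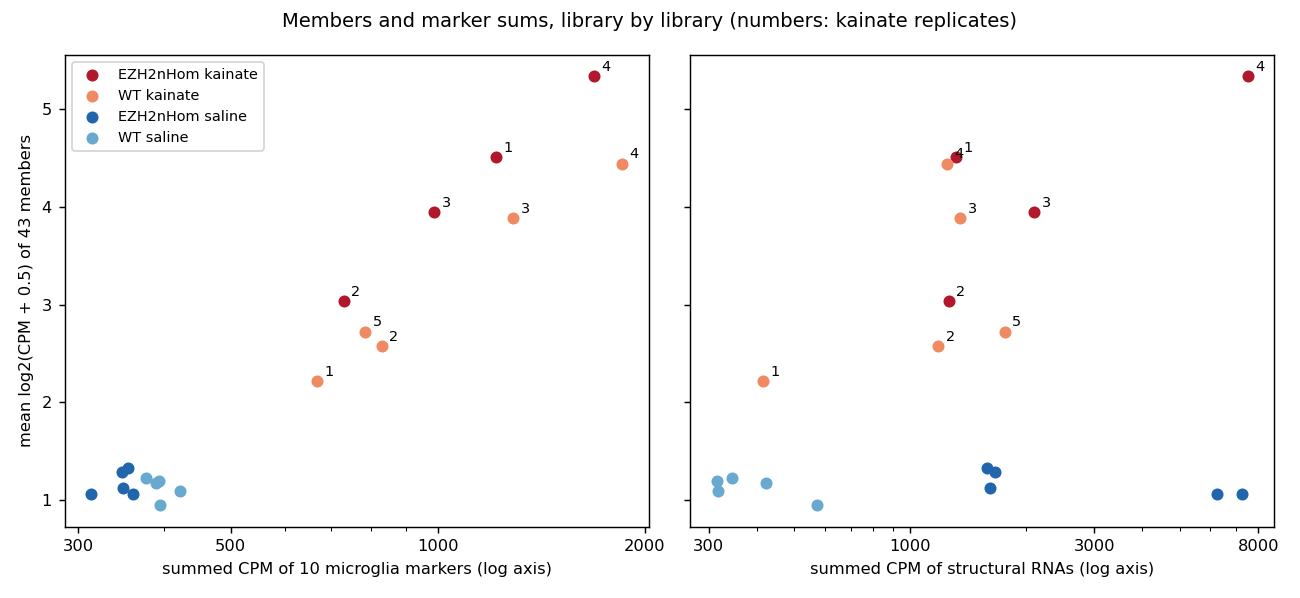
Mean log2(CPM + 0.5) of the 43 members in each library against the summed CPM of 10 microglia markers (left, log axis) and of structural RNAs (right, log axis), with numbers giving the kainate replicates. Among the kainate libraries member levels climb with microglia marker RNA in each genotype, apart from WT replicates 2 and 5, which lie close together, and the saline libraries stay between 0.948 and 1.33 at any amount of structural RNA.

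The genotypes were then compared directly after kainate, with the same kainate libraries that gave the responses above. All 43 members had a higher fitted level in EZH2nHom kainate than in WT kainate, with a median log2 difference of 1.03 (range 0.42 to 1.93), where the median over all genes was 0.00. Of these, 6 passed, where 4.56% of all genes were higher, and 0 were lower. These were Irf7 (1.82 ± 0.54, adjusted p = 0.0465), Oasl2 (1.78 ± 0.51, adjusted p = 0.0396), Samd9l (1.40 ± 0.38, adjusted p = 0.0303), Xaf1 (1.16 ± 0.33, adjusted p = 0.039), Ifit2 (1.13 ± 0.30, adjusted p = 0.0271) and Ifih1 (1.10 ± 0.33, adjusted p = 0.0471). A further 23 members had an unadjusted p under 0.05 without passing, which makes 29 in all, where 23.9% of all genes had such a p. Members are expressed together across these libraries, so a shared direction is not 43 separate observations.

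In each of the 6 genes EZH2nHom kainate replicate 2 lay within the range of the WT kainate libraries, and so did replicate 3 in 5 of them, all but Irf7. Without EZH2nHom kainate replicate 2, 16 members passed, and without WT kainate replicate 4, 30 passed. Without EZH2nHom kainate replicate 1, 2 members passed, and without EZH2nHom kainate replicate 4, or without WT kainate replicate 1, 2 or 5, 0 passed. The median difference was 0.52 without EZH2nHom kainate replicate 4 and 1.56 without WT kainate replicate 4. A fit to the 9 kainate libraries alone called 0 of the 43, with 14 at an unadjusted p under 0.05. The main fit also draws its spread from the saline libraries, where the members' mean level varied less. The shares of all genes in that fit are not given here.

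Some other measures also differed between the kainate groups. Of 8 genes tested on the structural RNA list, 2 were higher in EZH2nHom kainate, where 4.56% of all genes were higher, and 1 was lower. Rpph1 did not pass (1.60 ± 0.63, adjusted p = 0.129, edgeR). The list's sum had its highest value in EZH2nHom kainate replicate 4, and with its share as a covariate 0 members passed. Red blood cell genes were lower in EZH2nHom kainate for 5 of 5, where 585 of all 19234 genes tested were lower, with the summed levels given above. For microglia markers 0 of 10 differed, 5 were positive and 5 negative, and the summed ranges given above overlap. The part of structural RNA and of blood in the difference was not tested.

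After saline 0 of 43 members passed between the genotypes in edgeR, where 13.5% of all genes passed. An unadjusted p under 0.05 was found for 0 members, where 27.4% of all genes had one. The fit shares its estimate of spread with the kainate libraries. The SD of the members' mean level was 0.97 in EZH2nHom kainate and 0.95 in WT kainate, against 0.13 in EZH2nHom saline and 0.11 in WT saline. The SEs after saline take in that wider spread, so the count of 0 does not show equal levels. DESeq2 and limma-voom also called 0, while a fit to only the saline libraries called Isg15 and Ifit2, and the fit with the replicate number as a block called Isg15, Ifit2 and Xaf1. The fitted difference was positive for 26 members and negative for 17, with a median of 0.09 and a range of -1.21 to 0.70. Isg15 had the lowest, -1.21 ± 0.72 (adjusted p = 0.298), and Xaf1 was at -0.48 ± 0.34 (adjusted p = 0.403).

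The kainate responses of the genotypes were compared by the interaction term, which is the test of whether the deletion changed the response. It uses the same 19 libraries again. In edgeR 0 of 43 members passed, as 0 of all 19234 genes did, and 5 members had an unadjusted p under 0.05, where 8.76% of all genes had one. DESeq2 and limma-voom also called 0 members, though DESeq2 gave an adjusted p for 19 of the 43. The difference was positive for 43 of 43, with a median of 1.001 where all genes had -0.02. The smallest adjusted p belonged to Xaf1, at 1.64 ± 0.48 (adjusted p = 0.439), followed by Isg15 at 2.41 ± 0.90 (adjusted p = 0.494) and Stat2 at 0.71 ± 0.30 (adjusted p = 0.531). The larger response in EZH2nHom did not hold up against the spread between libraries, and equal responses are not shown either: the SE of the difference ran from 0.26 for Cmpk2 to 2.11 for Ifi206 on the log2 scale.

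**Figure D5:**
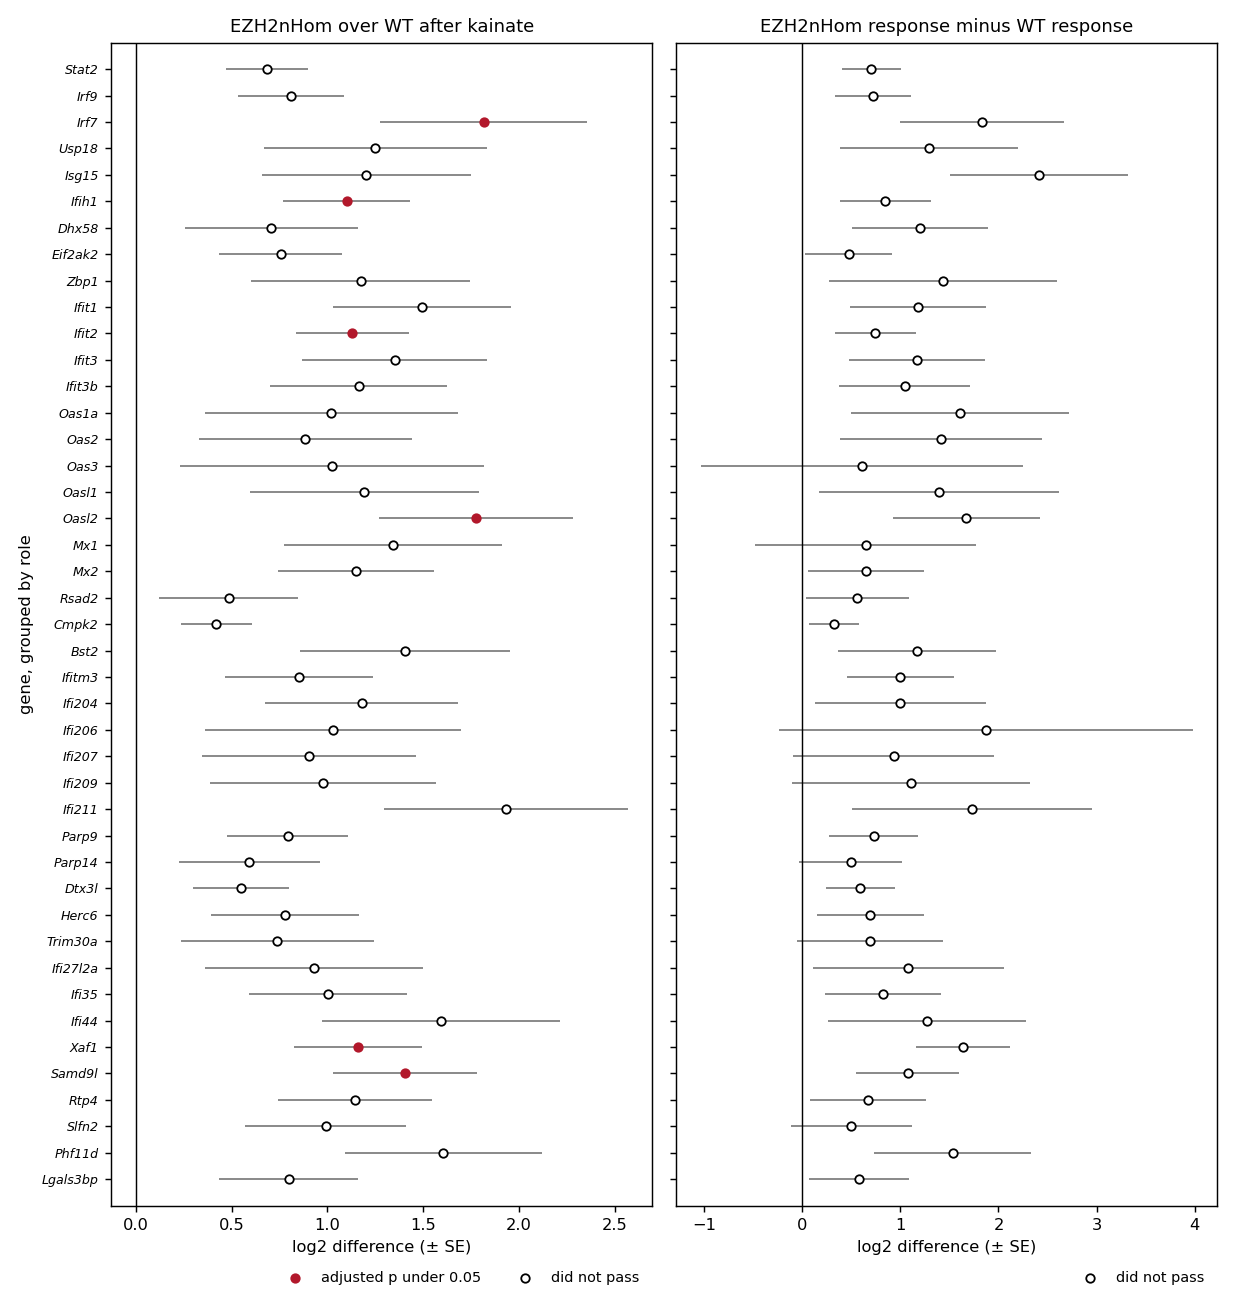
Log2 difference of EZH2nHom over WT after kainate (left) and of the EZH2nHom response minus the WT response (right), each ± SE from edgeR, for the 43 members. All points are above 0 in both panels, 6 on the left are filled for an adjusted p under 0.05, and none on the right.

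In the wider pathway 4 of 37 tested genes were higher in EZH2nHom after kainate, where 4.56% of all genes were higher. These were Ptpn2 (0.76 ± 0.11), Tbk1 (0.47 ± 0.12), Aim2 (1.07 ± 0.31) and Cxcl9 (2.13 ± 0.55). Ptpn2, a phosphatase that acts on Jak1, and Tbk1 were also higher after saline, by 0.81 ± 0.10 and 0.39 ± 0.12, where 1603 of all 19234 genes were higher. Their kainate responses did not pass in either genotype, with log2 changes of 0.01 and 0.07 in EZH2nHom and 0.06 and -0.01 in WT for Ptpn2 and Tbk1. Aim2 did not pass after saline, but every EZH2nHom saline library lay above every WT saline library, as for 12.9% of all genes. It was at 2.65 to 3.81 CPM in EZH2nHom saline and 1.35 to 2.48 CPM in WT saline.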

How the data were processed

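RNA was measured in 19 libraries of mouse hippocampus in 4 groups. The deposited table used here holds whole-number read counts per gene, not normalized, per the file headers, and its libraries were matched to the labels by the names of its columns. A second deposited table holds the authors' signal, counts divided by size factors, and served only for gene names. Per the submitters' processing notes the build was mm39 and DESeq and DESeq2 were used. The aligner, the counter, the annotation and the strand setting are not given in the sources used here. The submitters' table named 32313 genes and the reference annotation a further 20022.

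Genes were filtered with edgeR 4.0.16 (filterByExpr by group, R 4.3.3), which kept 19234, and scaled by TMM. One mean per group was fitted over all 19 libraries with robust quasi-likelihood dispersion, so all comparisons share 1 estimate of spread, and p-values were adjusted by Benjamini-Hochberg over all genes at 0.05. The script was tested on simulated data. Levels over members are means of log2(CPM + 0.5). Depth was 24496685 to 43948317 reads, and floors cover counting error only.

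The members and the gene lists were chosen with earlier results of these data known. Values in every library are given for the highest member of each role by CPM, the 4 largest and 4 smallest changes at a mean of 1 CPM or more, members that missed a threshold, and members that passed between genotypes or had the smallest p there. Replicates carry the numbers of the sample titles, which for EZH2nHom kainate are 1 to 4 where the count columns, matched through the sample descriptions, are numbered 2 to 5. Alternatives were other scaling (DESeq2 1.42.0 size factors), no filter or 1 CPM in 4 libraries, only the groups compared, a replicate block, covariates for Y-linked reads and for structural RNA, code prefix as a block, a threshold of 0.01, DESeq2's Wald test, other pseudocounts and leaving out each library. The pairs of libraries left out together and limma-voom (limma 3.58.1) were chosen after seeing the data. RefSeq promoters and GENCODE M21 transcripts are of GRCm38, not the files' build, and no coordinate was converted. Promoters were available for 32 members. Of the wider pathway, 1 gene is not reported here by name, though the list counts include it.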

Additional observations from a re-analysis of the deposited data

Results flagged for a closer look

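Irf7, the factor that amplifies interferon production, had 1 library far from the rest of its group. EZH2nHom saline replicate 4 was the lowest at 0.8213 CPM, while the other 4 EZH2nHom saline libraries lay between 1.16 and 1.27 CPM. The gap was 0.758 of the group's whole range, over Dixon's critical value of 0.71 for 5 samples. It was the only such library among 92 groups of values examined, and chance flags about 1 in 20 groups.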

How the results depend on the processing

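In EZH2nHom 43 of 43 members passed whichever library was left out (43 to 43), and 41 passed with the replicate number as a block, which lost Cmpk2 and Ifi206. In WT 42 passed, 40 to 43 with each library left out, 30 with the structural RNA covariate, 27 in limma-voom and 0 with code prefix as a block in 6 libraries. A code block could not be run in EZH2nHom, where no code occurs in both treatments. The 6 members higher in EZH2nHom after kainate became 0 without a filter, in a fit to only the groups compared, with the replicate block, with the structural RNA covariate and at 0.01. The count was 11 in DESeq2's Wald test, 14 in limma-voom, and 0 to 30 with each library left out. It was 0 without EZH2nHom kainate replicates 2 and 4 and 41 without WT kainate replicates 3 and 4. WT kainate replicates 3 and 4 are the highest WT kainate libraries, chosen after seeing the data, so leaving them out widens the difference by construction. After saline the count of 0 became 2 (Isg15 and Ifit2) in the fit to only the groups compared and 3 (with Xaf1) with the replicate block, and stayed at 0 to 0 with each library left out. For the difference of responses it became 15 without WT kainate replicates 3 and 4, and 0 to 0 with single libraries left out.

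Pathway genes called in WT were 23, and 7 with the structural RNA covariate, 0 with code prefix as a block, 10 without WT kainate replicates 3 and 4, 15 in limma-voom and 17 to 25 with each library left out. In EZH2nHom they were 26, and 24 to 28. After kainate they were 4, and 0 in the fit to only the groups compared and with the replicate block, 2 with the structural RNA covariate, 1 at 0.01, 20 without WT kainate replicates 3 and 4, 2 without EZH2nHom kainate replicates 2 and 4, 7 in limma-voom and 1 to 14 with each library left out. After saline they were 2, and 6, 8, 1 and 1 in the fit to only the groups compared, with the replicate block, with the Y-linked covariate and at 0.01, and 1 to 3 with each library left out. For the difference they were 0, and 4 without WT kainate replicates 3 and 4, and 0 to 0.

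The members' median with each library left out ran from 3.42 to 4.24 in EZH2nHom, 2.45 to 3.07 in WT, 0.52 to 1.56 after kainate, 0.0064 to 0.12 after saline and 0.52 to 1.47 for the difference. After saline it was -0.13 with the Y-linked covariate and -0.771 with the structural RNA covariate. The structural RNA covariate also reversed Oas3 after kainate (-0.14) and Ifit2 after saline (-0.28). Mean levels after saline with pseudocounts of 0.1 and 2 were 0.575 and 2.09 in EZH2nHom and 0.543 and 2.05 in WT. The cause of these shifts was not tested.

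Replicate numbers are not stated to pair samples. Same-numbered libraries correlated at -0.0546 to 0.0895 in EZH2nHom and 0.0767 to 0.309 in WT, and 1 of 4 and 4 of 5 pairs correlated best with their own number, so the block stands only as an alternative. For EZH2nHom kainate these are title numbers, and the count columns carry other numbers, with which neither the block nor the correlations were run. Depth limits the ligands and the 9 members near 0 after saline.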
